A study of Mus musculus with 2 samples.

Results

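The proteins of the Myc, Max and Mxd network are basic helix-loop-helix leucine zipper transcription factors that act as pairs with a shared partner, Max. Pairs of Max with Myc, Mycn or Mycl bind the E-box CACGTG and activate genes for growth, while pairs of Max with Mxd1, Mxi1, Mxd3, Mxd4 or Mnt bind the same kind of site and repress, the Mxd proteins and Mnt by way of the Sin3 corepressor. In embryonic stem (ES) cells Myc and Mycn support self-renewal, and Mga, a large Max partner that also holds a T-box DNA-binding domain, works with Max in a variant Polycomb complex, PRC1.6, that keeps germ cell genes low. The network's 10 genes were taken by symbol (Myc, Mycn, Mycl, Max, Mxd1, Mxd3, Mxd4, Mxi1, Mga and Mnt), with their protein-coding transcripts in the GENCODE M21 annotation of the mouse genome build GRCm38. The table held 30 of their 36 annotated coding transcripts, out of 49490 coding transcripts of 21587 genes in all.

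RNA was measured in wild-type DTCM23/49 XY mouse ES cells, a feeder-depleted line grown on gelatin in serum with leukemia inhibitory factor. The cells were given 200 µM of 4-thiouridine (4sU), a uridine analog that is built into RNA as it is made, for 10 min. RNA that had taken up 4sU was biotinylated and pulled down on streptavidin beads, which gave the labeled library (newly made RNA), and the RNA left in the supernatant gave the unlabeled library. There was 1 library of each kind, both of replicate 1, so no difference below has a replicate check and no test was possible. The submitters' labels are at odds on this second library, naming it preexisting in 1 field and total in others; preexisting RNA is the reading used here unless stated.

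The values are relative abundances per length, given separately for the exons and the introns of each transcript, with 2 decimals. Each library's values sum to 10 times a TPM total, and read depth is unknown. Introns made up 15.4% of the labeled and 6.26% of the unlabeled library. ES cell markers were high, with Nanog at 389 labeled and 846 unlabeled and Pou5f1, which encodes Oct4, at 161 and 256 in the leading transcript. Of the 10 fibroblast feeder markers, 4 (Col3a1, Lum, Pdgfrb and Postn) were listed at 0 in both libraries, and the highest, Acta2, stood at 10.9 and 38.6. Of 10 differentiation markers, 3 (Gata6, Sox17 and Foxa2) were listed at 0 in both libraries and the highest, Pax6, stood at 8.40 and 10.1.

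What the members share in sequence is the basic region that reads the E-box. A search of the translated coding sequences for the spacing of its histidine, glutamate and paired arginines found it in all 10 members. For members, coding transcripts were searched until a match was found, incomplete coding sequences included. It was found in 0.735% of 12524 coding sequences over all genes. These were only complete ones, 1 per gene, with a mean exon value above 1, so the searches were not alike. The coding stretch of 48 bases around the match is shown for 9 members, 5′ to 3′ on the coding strand from the GENCODE transcript sequences. It is shown because it holds what the members have in common, and that of Myc is not shown. Capitals mark the codons of the histidine, the glutamate and the paired arginines, which the search itself required, so only the bases in lower case tell the members' residues apart.
Mycn (Mycn-201): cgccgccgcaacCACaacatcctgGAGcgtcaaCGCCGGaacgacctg
Mycl (Mycl-202): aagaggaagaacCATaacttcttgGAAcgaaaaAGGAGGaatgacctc
Max (Max-201): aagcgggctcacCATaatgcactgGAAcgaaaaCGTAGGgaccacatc
Mxd1 (Mxd1-201): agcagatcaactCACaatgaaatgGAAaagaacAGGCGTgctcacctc
Mxi1 (Mxi1-203): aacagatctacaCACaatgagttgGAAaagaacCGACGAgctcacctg
Mxd3 (Mxd3-201): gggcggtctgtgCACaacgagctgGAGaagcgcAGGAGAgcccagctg
Mxd4 (Mxd4-201): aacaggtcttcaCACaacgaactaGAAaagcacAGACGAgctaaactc
Mnt (Mnt-201): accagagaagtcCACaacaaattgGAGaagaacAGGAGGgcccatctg
Mga (Mga-215): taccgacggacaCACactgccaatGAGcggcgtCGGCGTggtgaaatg
Between Mxd1 and Mxi1, 39 of the 48 bases were the same, and between Mxd4 and Mxi1, 37. In the activating family Myc shared 36 bases with Mycl and 32 with Mycn, and Mycn shared 29 with Mycl. Between these 3 and Mxd1, Mxi1, Mxd3, Mxd4 or Mnt the counts ran from 20 (Mycn and Mxd4) to 26 (Myc and Mnt, among others), and Mycl shared 32 with Max and 19 with Mga. The E-box itself, CACGTG (which reads the same on both strands), was looked for in RefSeq promoter windows of 300 bases, from 250 before to 50 after each start. It was found in 3 of 11 windows of the 9 member genes that had one, those of Max, Mnt and Mxd4, and in 7.15% of 32851 windows of all genes. These stretches, of 46 bases and with the E-box in capitals, are shown because they place the network's own binding motif beside its members' starts; a match of letters is not a binding site.
Max (GRCm38.p6, chr12:76962226-76962271, minus strand): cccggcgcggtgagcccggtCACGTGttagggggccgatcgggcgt
Mnt (GRCm38.p6, chr11:74830781-74830826, plus strand): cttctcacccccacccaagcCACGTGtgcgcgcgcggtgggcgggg
Mxd4 (GRCm38.p6, chr5:34187904-34187949, minus strand): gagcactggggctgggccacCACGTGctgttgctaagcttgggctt
The Mnt motif ended 118 bases before the RefSeq start and the Mxd4 motif 214 bases before it, while the Max motif lay across the RefSeq start. All 3 motifs lay upstream of the GENCODE transcripts whose values are given. Of these genes Max was among the most abundant members and Mxd4 was the least abundant.

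Which members do these cells carry, and how much of each is newly made? The exon values of the members spanned a wide range (plot of exon and intron values by gene). Levels are given for the leading coding transcript of each gene, the one with the highest mean exon value. Sums over coding transcripts are given beside them in some comparisons. Over all genes the summed value was a median of 1.74 times the leading value with 2 coding transcripts and 4.79 times with 8. Values shared out evenly between transcripts would also give such a rise, so these folds do not show which measure is the better level.

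**Figure D1:**
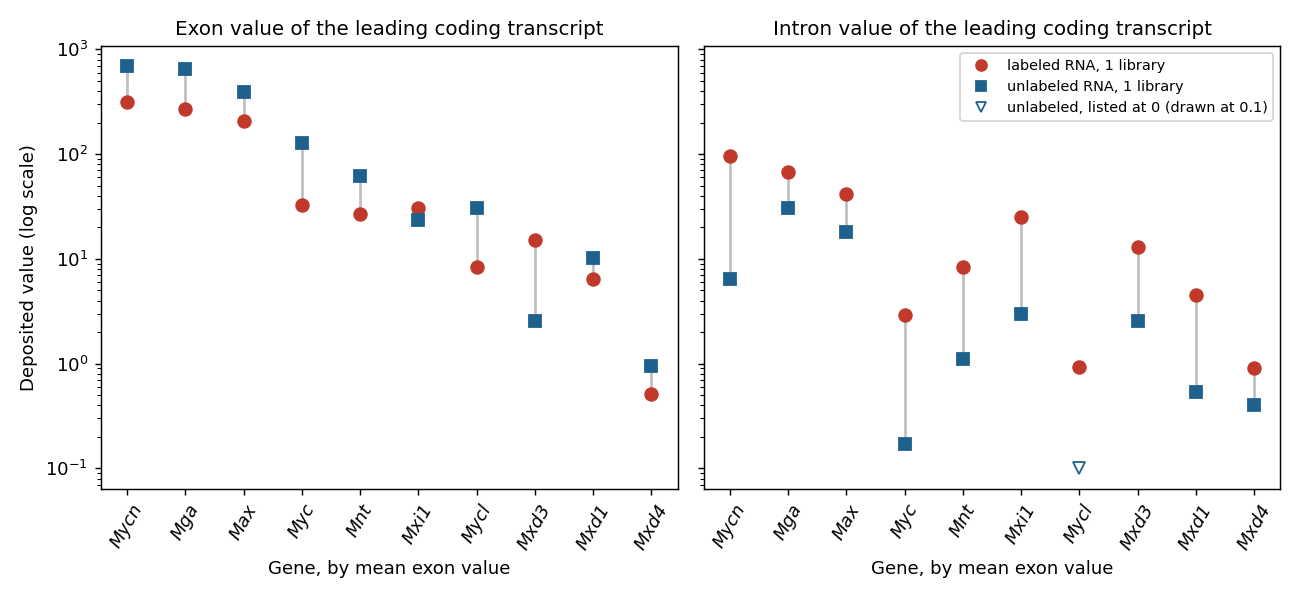
Deposited exon values (left) and intron values (right), on a log scale, of the leading coding transcript of each of the 10 members in the labeled library (circles) and the unlabeled library (squares), 1 library each. Mycn, Mga and Max stood above the other members in exon value in both libraries. Intron values were higher in the labeled library for every member. The open triangle is the unlabeled intron value of Mycl, listed at 0 and drawn at 0.1.

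By the leading transcript, Mycn was the most abundant member. It stood at 315 in the labeled and 694 in the unlabeled library, percentile 97.5 of coding genes by mean level. Myc stood at 33.0 and 127, so that the exon value of Mycn was 9.55 times that of Myc in labeled RNA and 5.47 times in unlabeled RNA. By the sums over coding transcripts, of which Myc has 8 and Mycn 2, these folds were 3.38 and 2.08. Mycl was lower, at 8.39 and 30.7. All 3 members of the activating family were thus measured, in the same order in both libraries, and each was lower in the labeled library.

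Max, the partner that the other members share, stood at 209 labeled and 390 unlabeled. That is below Mycn, by a factor of 1.51 in labeled and 1.78 in unlabeled RNA, and above Myc, by 6.33 and 3.07 times (2.29 and 1.13 times by the sums). Mga stood at 271 and 649, close to Mycn: the level of Mycn over Mga was 1.16 in labeled and 1.07 in unlabeled RNA. By the sums, Mga was above Mycn, by 1.71 times in labeled and 2.01 times in unlabeled RNA, so the order of these neighbours cannot be set.

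Among the repressing partners, Mnt stood at 26.6 labeled and 62.2 unlabeled and Mxi1 at 30.8 and 23.5. Their order differed between the libraries: in unlabeled RNA Mnt was 2.64 times Mxi1, and in labeled RNA 0.864 times (1.38 and 0.412 times by the sums). The remaining Mxd genes were low. Mxd1 stood at 6.45 and 10.2, Mxd3 at 15.0 and 2.56, and Mxd4 at 0.51 and 0.96. Mxd4 did not pass the minimum mean exon value of 1 that was set for gene comparisons, so 9 of the 10 genes passed.

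The question of which transcripts are rich in newly made RNA was asked with the log2 ratio of labeled to unlabeled exon values, summed over coding transcripts of a gene, minus the median over all 14127 coding genes that passed (raw median -0.26, a labeled value 0.837 times the unlabeled one). This centred ratio is relative, since each library sums to the same total. Of the 9 member genes, 4 (Myc, Mycl, Mnt and Mga) lay more than 2-fold below the median, where 14.8% of all genes lay, and 1 (Mxd3) lay more than 2-fold above it, where 21.9% lay. The other 4 (Mycn, Max, Mxd1 and Mxi1) lay within 2-fold, and the members' median was -0.81 on the log2 scale.

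**Figure D2:**
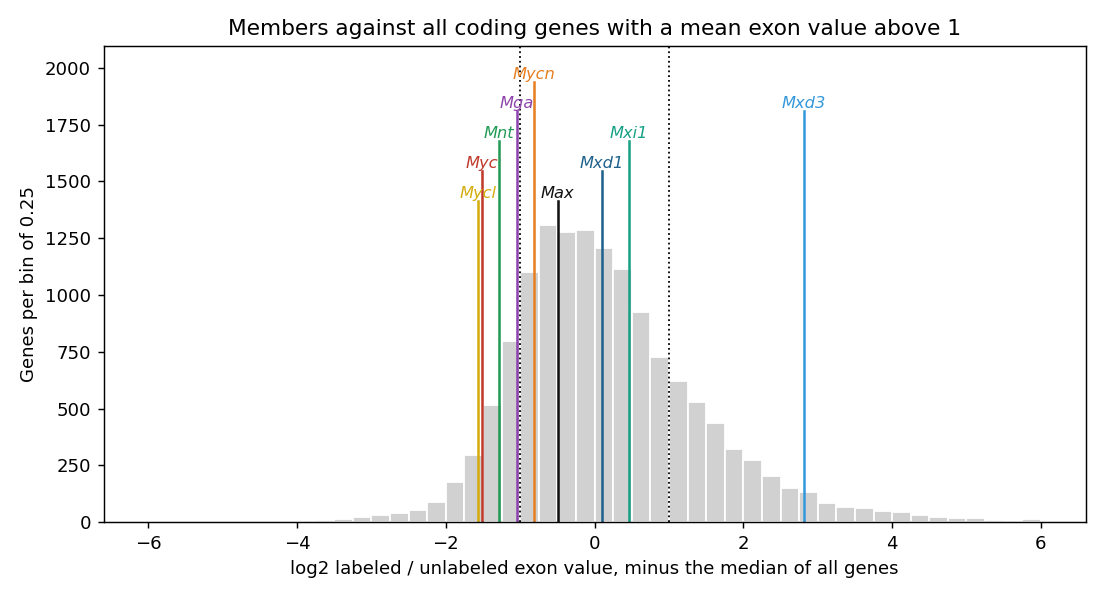
Number of coding genes (grey bars, 14127 in all; values beyond the axis are in the end bins) by centred log2 labeled to unlabeled exon ratio, with the 9 members that passed as coloured lines and 2-fold as dotted lines. Mycl, Myc, Mnt and Mga lie left of the lower dotted line, Mxd3 far right of the upper one at 2.81, and the other 4 between.

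In the activating family, Myc had a centred log2 ratio of -1.52, which is 2.86 times below the median gene and at percentile 5.27 of all genes. Its summed exon values were 191 in labeled and 651 in unlabeled RNA. Of its 8 coding transcripts, 7 were lower in labeled than in unlabeled RNA. Their log2 ratios, centred on the same median, ran from -1.69 (Myc-208) to -1.45 (Myc-207). The short transcript Myc-203 was listed at 3.94 labeled and 0 unlabeled and made up 0.468% of the gene's mean sum. Mycl lay beside Myc at -1.57, percentile 4.74, from sums of 15.3 and 54.0. Mycn lay higher, at -0.81 and percentile 20.6, from sums of 645 and 1351. Its 2 coding transcripts, centred on the same median, had values of -0.88 and -0.74.

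Max had a centred log2 ratio of -0.50, at percentile 31.9, from sums of 437 labeled and 737 unlabeled. The members of the Max-binding repressor group did not lie together. Mga, at -1.04, and Mnt, at -1.28, lay below 2-fold, while Mxd1 (0.10) and Mxi1 (0.46, a labeled share 1.37 times that of the median gene) lay near or above the median. By the leading transcript alone Mga (-0.95) and Mnt (-0.92) lay within 2-fold. Centred on the median of the gene sums, the log2 ratio of the transcript Mnt-202 was -2.03 and that of Mnt-201 was -0.97.

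Mxd3 stood apart from all other members. It encodes a Max partner that has been linked to proliferating cells. Its single coding transcript was at 15.0 in labeled and 2.56 in unlabeled RNA, 7.01 times the ratio of the median gene and at percentile 96.4. It was the only member gene more than 2-fold above the median. Its annotated span shares 105 bases with Prelid1 on the opposite strand, whose leading transcript stood at 229 labeled and 243 unlabeled, and whether counting used strand is not given in the sources used here; the part of Prelid1 in the Mxd3 values was not tested.

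Centred ratios moved with length, number of U bases and level over all genes. The 14127 genes come from the same 2 libraries and are not independent replicates, so this is a description. Spearman's rho was -0.28 with the unspliced length and -0.29 with the mean exon value. It was -0.29 with the spliced length and -0.30 with the number of U bases, by which the members were not classed. The members were also placed among genes of similar level, in 5 classes of equal size. In the highest class, Mycn lay at percentile 32.0, Max at percentile 47.5 and Mga at percentile 20.7 of the centred ratio. Myc, in the next lower class, lay at percentile 3.50 and Mnt, in the same class, at percentile 7.08. Mycl, in the middle class, lay at percentile 2.66, and Mxd3, in a class below that, at percentile 95.4. Among genes of similar unspliced length, Myc lay at percentile 4.63, Mycl at percentile 4.11, Mnt at percentile 7.93 and Mxd3 at percentile 92.9. There Mycn lay at percentile 15.0, lower than among genes of its level, and Max at percentile 30.2. Myc, Mycl and Mnt were thus low and Mxd3 was high within their classes of level and of unspliced length alike.

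Intron values follow RNA that has not been spliced, and they were higher in the labeled library for all 10 members. Over all 13283 genes with intron values in both libraries the labeled intron value was a median of 3.89 times the unlabeled one. Mycn stood far above this: its summed intron values were 224 in labeled and 15.6 in unlabeled RNA, a fold of 14.3, at percentile 97.5. Mxi1 followed at 7.56-fold (69.0 and 9.12, percentile 90.1), while Max (87.3 and 37.3, 2.34-fold) and Mga (306 and 111, 2.77-fold) lay below the median gene.

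**Figure D3:**
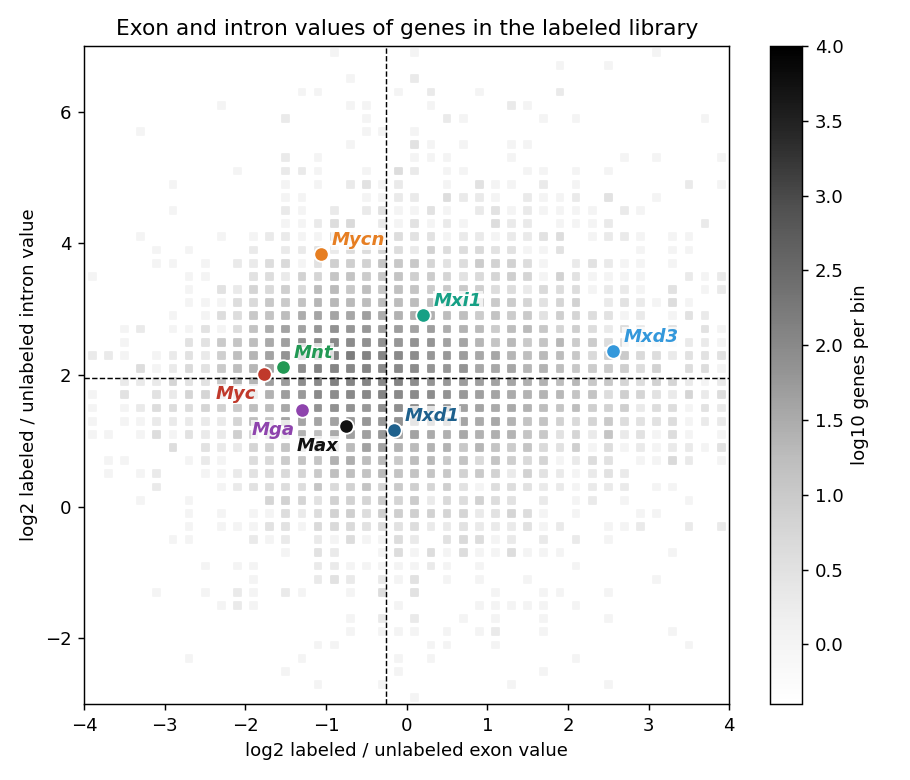
Log2 labeled to unlabeled exon value (horizontal) and intron value (vertical) of all coding genes with intron values in both libraries (grey squares, shaded by the number of genes per bin) and of the 8 members with these values (coloured points), summed over coding transcripts and not centred. Dashed lines are the medians of all genes, and the axes are cropped. Mycn lies left of the exon median and high above the intron median, and Mxd3 lies far to the right.

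For Myc the intron fold depended on 1 transcript. Its summed intron values were 27.3 labeled and 6.72 unlabeled, 4.07-fold, of which Myc-203 alone held 5.48 of the unlabeled value. Without Myc-203 the sums were 23.9 and 1.24, a fold of 19.3 (an alternative added after seeing the data). The leading transcript, Myc-208, stood at 2.93 and 0.17, a fold of 17.2 that lay at percentile 98.0 of 12614 leading transcripts, beside Mycn-201 at 14.9-fold and percentile 97.4. No counting error can be given for an intron value as low as 0.17. Mxd1 and Mnt also moved, from 2.25- to 8.30-fold and from 4.37- to 7.64-fold, when the leading transcript was taken in place of the sum.

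The ratio of intron to exon value within a library sets unspliced against all RNA of a gene. Of the 8 member genes with intron values in both libraries and a mean exon value over the minimum, 7 had a higher ratio in labeled than in unlabeled RNA, as did 89.2% of all 13283 genes. The members' median ratio was 0.395 in labeled and 0.0457 in unlabeled RNA, against 0.582 and 0.122 over all genes. The exception was Mxd3, with 0.872 in labeled and 0.988 in unlabeled RNA. A labeled ratio that is under 1 and not above the unlabeled one was found in 5.1% of all coding transcripts. Its intron value in the unlabeled library, 2.53, was nearly that of its exons, 2.56.

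The lowest unlabeled ratios above 0 in the network were those of Myc and Mycn. Myc had 0.143 in labeled and 0.0103 in unlabeled RNA, and the unlabeled ratio lay at percentile 3.71 of all genes. By the leading transcript Myc had 0.0888 and 0.00134, a labeled over unlabeled ratio of 66.3. Mycn had 0.347 and 0.0116, a labeled over unlabeled ratio of 30.0 at percentile 98.1, and 32.8 by the leading transcript. Mycl had 0.132 in labeled RNA, and its introns were listed at 0 in unlabeled RNA, so no fold is given.

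Max had a labeled ratio of 0.200 and an unlabeled ratio of 0.0506, Mga 0.278 and 0.0407, and Mnt 0.443 and 0.0348. In these genes, as in Myc and Mycn, labeled RNA held fewer introns relative to exons than in the median gene. Mxi1, at 0.831 and 0.126, and Mxd1, at 1.00 and 0.398, held more, and Mxd1 was the 1 member gene that reached a labeled ratio of 1, where 29.3% of all genes lay. By its leading transcript alone Mxd1 had 0.695 and 0.0529. Mxi1 shares 201 bases with Gm10197 on the opposite strand, which stood at 18.9 labeled and 66.5 unlabeled. It also shares 5146 bases with AC133451.2, likewise on the opposite strand, whose level is not given here. The part of either gene in the Mxi1 values was not tested. On the same strand, Max shares 1319 bases with Gm47218 and Mxd1 shares 2364 with Gm44292, so their values are uncertain to the extent that reads were split between these genes.

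**Figure D4:**
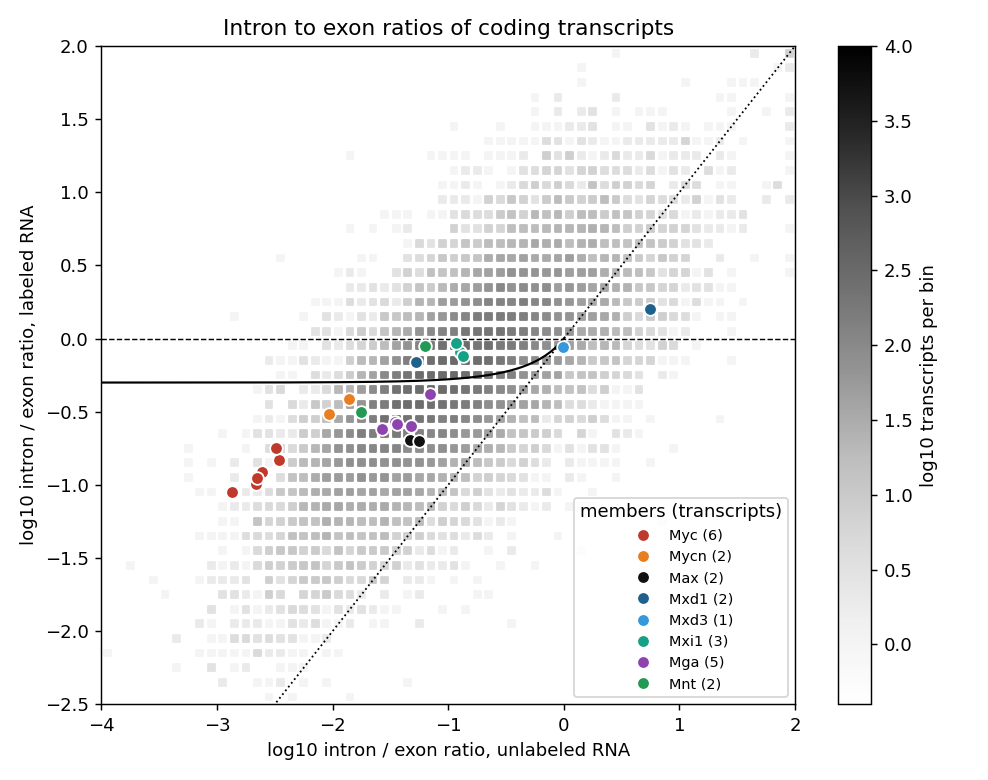
Intron to exon ratio in unlabeled RNA (horizontal) and labeled RNA (vertical), both log10, of all coding transcripts with a mean exon value above 1 and all values above 0 (grey squares) and of 23 member transcripts (coloured points). The dashed line is a labeled ratio of 1, the dotted line equal ratios, and the solid curve the border above which the rate model has 1 solution. Transcripts of Myc lie lowest and farthest left, those of Mxi1 between the curve and the dashed line, and Mxd3 just below the dotted line.

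The transcripts of 1 gene mostly fell together in this plane. Of the 27 member transcripts over the minimum, 23 had all values above 0. Only the minor coding transcript of Mxd1 had a labeled ratio of 1 or more (1.595, with 5.51 in unlabeled RNA), where 28.2% of all 31386 coding transcripts lay. All 5 Mga transcripts lay between 0.239 and 0.421 in labeled RNA, and both Max transcripts lay close to 0.20 (0.202 and 0.198). The Mnt transcripts were split, with Mnt-202 at 0.886 and Mnt-201 at 0.316.

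The study's model turns the labeled and unlabeled ratios into rates of processing (splicing) and degradation where the labeled ratio is under 1 and above the unlabeled ratio. This held for 21 of the 23 member transcripts and for 66.7% of all coding transcripts. Of the 21, 5 lay above the border where the model has 1 solution and 16 below it, where it has several or none. Where none existed, the study's fit over 1 variable was taken, which need not be the nearest point of the model. Among leading transcripts, Mxd1-201 and Mxi1-203 had an exact solution, with degradation half-lives of 71.3 and 70.6 min and processing half-lives of 8.63 and 15.7 min. With a leakage of unlabeled RNA into the labeled library subtracted, these degradation half-lives became 371 and 172 min, and with the second library read as total RNA 157 and 109 min. In this last setting Myc-208, at 456 min, and Mycn-201, at 233 min, lay above both.

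No exact solution existed for the leading transcripts of Myc, Mycn, Max, Mga and Mnt. For these the fit over 1 variable gave degradation half-lives of 35.1, 6.87, 23.2, 17.3 and 8.02 min. It missed the measured ratios by a natural-log distance of 0.0845 (Mycn) to 1.14 (Myc). A fit over both variables came closer for all 5, at 0.0489 (Mycn) to 0.982 (Myc). That fit gave 8.73, 5.34, 3.37, 3.30 and 4.46 min. The half-lives thus depend on the setting. Over the alternatives Myc ranged from 8.73 to 456 min, Mycn from 5.34 to 233 min, Mnt from 4.46 to 126 min, Mga from 3.30 to 33.2 min and Max from 3.37 to 26.5 min, so the half-lives of these 5 do not set an order. Processing half-lives moved less. They ranged from 0.612 to 1.65 min in Myc, from 1.57 to 3.41 min in Mycn and from 1.29 to 3.62 min in Max, all shorter than those of Mxd1 (8.63 to 26.8 min) and Mxi1 (15.7 to 31.2 min). Mycl and Mxd3 received no rates, the first for an intron value listed at 0 and the second for its order of ratios, and Mxd4 was below the minimum and had a labeled ratio of 1.78.

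In the untranslated 3′ end, where AU-rich elements hasten the decay of many short-lived mRNAs, the pentamer ATTTA was counted on the coding strand. The coding transcript with the longest such end was used for each gene, which is not always the leading one. Of the leading transcripts, Myc-208 is annotated without this end and Mxi1-203 held 4 in 1418 bases. It was present in 67% of 13665 genes, at a median of 1.24 per kilobase. Myc held 2 in 466 bases (4.29 per kilobase), Mxi1 9 in 4074 bases (2.21 per kilobase) and Mycn 1 in 913 bases (1.10 per kilobase). Mnt (0.416 per kilobase), Max (0.770) and Mycl (1.02) lay below the median, and Mxd3 and Mxd4 held none. The longer AU-rich nonamer TTATTTATT, present in 7.91% of genes, was in 0 of the 10 members. Counts this small are a description of the letters in these transcripts.

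The genes whose values were most like those of Myc and Mycn were sought among 12420 leading transcripts, by Euclidean distance over the log2 exon and intron values of both libraries. Nearest to Myc lay Acsl1, at exon values of 30.4 labeled and 128 unlabeled and intron values of 3.57 and 0.20 (distance 0.388), followed by Gstm7 (0.853) and Ftsj1 (0.933). Nearest to Mycn lay Morf4l1 (0.765), Rnf4 (0.783) and Gpbp1 (0.890). Mycn had no neighbour as close as Acsl1 was to Myc.

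The genes that work with the network were described by the same centred ratio, from lists of genes known to work with them, which were drawn up with earlier results of these data known (plot of members and lists). Of 12 Myc coactivators and partners, 2 lay more than 2-fold below the median and 0 above it, with a median of -0.43. The lowest were Hcfc1 (-1.52) and Trrap (-1.28), the scaffold of Myc's histone acetyltransferase complexes, and the highest was Zbtb17 (-0.05), which encodes the Myc partner Miz1. Of 7 genes for turnover and modification of Myc protein, 1 lay below 2-fold, the ubiquitin ligase gene Huwe1 (-1.24), and 0 above it, with a median of -0.60. The highest was Aurka (0.57), which encodes the kinase Aurora A. Fbxw7, whose product marks phosphorylated Myc for destruction, stood at 49.5 labeled and 89.9 unlabeled in its leading transcript.

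**Figure D5:**
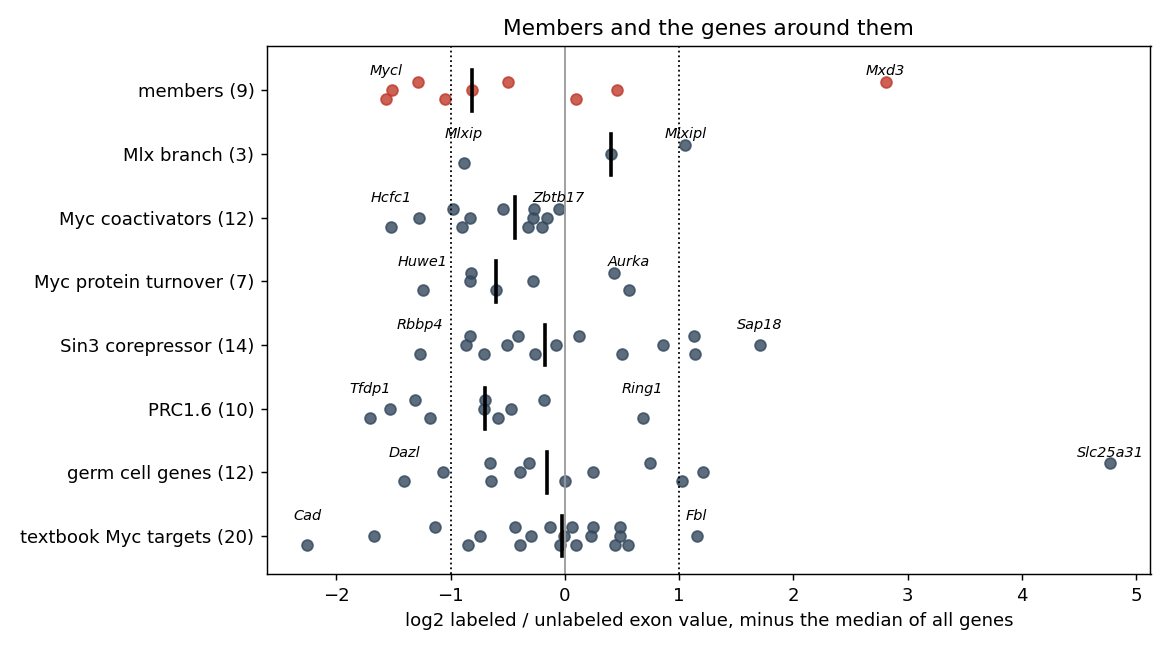
Centred log2 labeled to unlabeled exon ratio of each gene (points, offset vertically for visibility) in the network (red) and in 7 lists of genes around it (number of genes that passed in parentheses). Thick bars are medians, the grey line is the median of all genes and dotted lines are 2-fold; the lowest and highest gene of each row are named. The members' median, at -0.81, and that of PRC1.6, at -0.70, lie farthest left.

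On the repressing side, 14 genes of the Sin3 corepressor had a median of -0.17, with 3 above 2-fold and 1 below. The highest were Sap18 (1.71), Ing2 (1.14) and Sin3b (1.13), and the lowest was Rbbp4 (-1.27), a histone chaperone. Sin3a, the scaffold that the Mxd proteins bind, was abundant, at 393 labeled and 830 unlabeled, and Sin3b stood at 132 and 65.3. The 2 scaffold genes thus differed in direction: Sin3a had a centred ratio of -0.71.

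The 10 genes for the PRC1.6 complex, in which Mga and Max take part, had a median of -0.70, with 4 below 2-fold and 0 above. The lowest were Tfdp1 (-1.71), Rnf2 (-1.53), which encodes a Polycomb ubiquitin ligase, and Yaf2 (-1.31), and the highest was Ring1 (0.68). Pcgf6, which defines the complex, stood at 196 labeled and 353 unlabeled. Of 12 germ cell genes that Max and Mga keep low, all passed the minimum, as did 14127 of all 21587 coding genes. Passing so low a minimum does not show whether these genes were repressed. Their leading values ran from 1.05 to 156 in labeled and from 0.14 to 279 in unlabeled RNA. Hormad1 was the highest, and Ddx4 stood at 22.2 and 43.8. Of the 12 genes, 3 lay above and 2 below 2-fold, with a median of -0.15. The highest, Slc25a31 (4.78), stood at 3.21 labeled and 0.14 unlabeled, so that its ratio rests on a very low value.

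Of 20 textbook Myc targets, 16 lay within 2-fold, 3 below and 1 above, and their median, -0.03, was near that of all genes. The lowest were Cad (-2.25), which catalyses the first steps of pyrimidine synthesis, Ccnd2 (-1.67), which encodes cyclin D2, and Eif4e (-1.13), and the highest was Fbl (1.16), which encodes the nucleolar methyltransferase fibrillarin. In the Mlx branch, the related factors that pair with Mlx in place of Max, Mlx was at 0.40, Mlxip at -0.88 and Mlxipl at 1.06, from leading values of 4.96 labeled and 3.02 unlabeled for the last. All these lists use the same 2 libraries as the members, and a share of genes past 2-fold near 14.8% below and 21.9% above is that of all genes.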

How the data were processed

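The authors set aside ribosomal reads, aligned the rest to exon and intron sequences with STAR, and estimated abundance with RSEM. They deposited 1 table of relative abundance scores, called TPM, with exon and intron values of 121429 transcripts in 2 libraries; because each deposited column sums to 10 times a TPM total, these scores were used as deposited and the minimum of 1 applies to that scale. The strand setting of the counting is not given in the sources used here. Transcripts were matched by identifier to GENCODE M21 (110366 matched). No column was left out (0 sample columns outside the design).

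Gene values were sums over protein-coding transcripts, or the leading transcript (highest mean exon value). Genes with a mean exon value above 1 were compared, and past 2-fold means a centred log2 ratio beyond 1 or -1. Rates followed the study's equations with 4000 grid points and 10 min of labeling. The solver was tried on noise-free simulated data, in which an exact solution always exists. At least 1 of the solutions found matched the simulated rates in 100% of 344 transcripts. That check covers neither the choice between several solutions nor the fits taken where no exact solution exists. With 1 library per group no test, error or p-value was computed, and no interval for counting error could be given. The 10 members, the gene lists and the alternatives were chosen with earlier results of these data known. All members were named; in each list at most the 3 highest and 3 lowest genes by centred ratio were to be named, besides those given for their level (Fbxw7, Sin3a, Pcgf6, Hormad1, Ddx4, markers and overlapping genes), which were chosen after their values were seen. The lists of coactivators and of Myc protein turnover are given without 1 gene each, which is not reported here. Alternatives were the leading transcript only, all biotypes, pseudocounts of 0.1 and 1, a minimum of 10 or none, subtraction of leakage (0.143 of the unlabeled value, the first percentile of the exon ratio), exon plus intron values, other choices of rate solution, and the second library read as total RNA. Python 3.11.15 with numpy 2.4.6, pandas 2.3.3 and scipy 1.17.1 was used.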

Additional observations from a re-analysis of the deposited data

How the results depend on the processing

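No paired analysis was possible because each RNA pool was measured in 1 library, without any test. A value was taken as unmoved when it changed by less than 1.5-fold. The count of member genes more than 2-fold below the median, 4, was 2 with the leading transcript only and between 3 and 5 in the other 7 settings; Myc and Mycl were below 2-fold in all 8 alternatives, and Mycn, Max, Mga and Mnt were below the median in all of them. The count above 2-fold, 1, became 0 with a minimum of 10, which leaves out Mxd3. The members' median ranged from -1.07 to -0.78 on the log2 scale. Mxd1 changed side of the median, from 0.10 to between -0.36 and 0.49. Member genes with a higher intron to exon ratio in labeled RNA numbered 7 or 8 in every setting tried. Member transcripts whose labeled ratio reached 1, numbering 1, became 2 with no minimum, 0 with a minimum of 10 and 3 with leakage subtracted, and those that received rates ranged from 19 to 24. No value called past 2-fold changed sign. Of 80 single-gene centred ratios under alternatives, 4 moved. A minimum of 10 or none changed only the median subtracted, by less than 1.5-fold, so no ratio could move there. Of 28 degradation half-lives 16 moved, and of 28 processing half-lives 9. Taking the smaller of several solutions could not move any, since no leading transcript had several in the main setting. Fitting both variables could not move Mxd1 and Mxi1, which had exact solutions. These counts thus include values that were bound to stay. The causes of the moves were not tested. Since depth is unknown, no counting error can be set on low values, such as those of Mxd4, the Mxd3 exons in unlabeled RNA (2.56) and the unlabeled introns of Myc, Mycl and Mxd1.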
